A study of Mus musculus with 24 samples.

Results

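The levels of 10 genes that are widely used as markers of cancer-associated fibroblasts, Acta2, Pdgfra, Pdgfrb, Fap, Pdpn, Thy1, Postn, Fn1, Dcn and Lum, were described in 24 bladder tumors. The genes were taken by name from 53465 genes in the deposited table, and all 10 were found. The tumors belong to 8 transplantable mouse lines, named BURP lines, with 3 tumors per line, and each line started from the bladder of a single C57BL/6NTac donor mouse that drank 0.1% BBN, a nitrosamine carcinogen of the urothelium, from 8 weeks of age for up to 36 weeks. Pieces of tumor were then passed under the skin of C57BL/6NTac mice of the same sex. The study classed 6 lines as basal/squamous (BaSq), of which BURP-12BaSq, BURP-17BaSq and also BURP-18BaSq came from male donors and BURP-21BaSq, BURP-24BaSq and also BURP-25BaSq from female donors. It classed BURP-19NE (male) as neuroendocrine-like and BURP-16SR (male) as stroma-rich, although part of the BURP-16SR tumors correlated best with the neuroendocrine-like class. All groups therefore share the strain, the carcinogen and the subcutaneous site, and no untreated bladder was sequenced. Ages of the host mice, and whether any sequenced tumor came from a mouse treated with cisplatin, are not given in the sources used here.

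Cancer-associated fibroblasts are the mesenchymal cells that lay down and remodel the matrix of a carcinoma. In an allograft they are usually thought to come from the host, whose cells form new stroma around each graft. No single gene defines them. Pdgfra and Pdgfrb encode the receptors for platelet-derived growth factors, and Pdgfrb also marks pericytes. Pdpn encodes podoplanin, a membrane glycoprotein of fibroblasts, lymphatic endothelium and some basal epithelium, and Thy1 a surface glycoprotein also carried by T cells and neurons. Acta2 encodes smooth muscle actin, the hallmark of contractile myofibroblasts, pericytes and smooth muscle. Fap encodes a membrane serine protease, Postn and Fn1 the matrix proteins periostin and fibronectin, and Dcn and Lum the small leucine-rich proteoglycans decorin and lumican, which bind collagen fibrils.

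On the GRCm38 build, the genes other than Pdgfrb lie on chromosome 19 from 34241090 to 34255590 (Acta2), chromosome 5 from 75152292 to 75198215 (Pdgfra), chromosome 2 from 62500943 to 62574075 (Fap), chromosome 4 from 143267431 to 143299564 (Pdpn), chromosome 9 from 44043384 to 44048579 (Thy1), chromosome 3 from 54361109 to 54391037 (Postn) and chromosome 1 from 71585520 to 71653200 (Fn1). Dcn, from 97479609 to 97518143, and Lum, from 97565128 to 97572703, are neighbours on chromosome 10. Genes that overlap Pdgfra held at most 37 counts each over the 24 tumors against 9577 for Pdgfra, and the antisense gene that overlaps Fn1 held 63 against 549889.

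A promoter was found in the RefSeq table (build GRCm38.p6) for 4 of the 10 genes, Acta2, Pdgfra, Pdpn and Postn. The 250 bases before the start are printed 5′ to 3′ for Acta2 and for the second of 2 promoters of Postn, whose levels followed those of the other markers among the tumors of a line, and for Pdpn, whose levels did so in BURP-17BaSq but not over the lines together. Capitals mark matches to the motifs searched.
Acta2 (chr19:34255374-34255623, minus strand): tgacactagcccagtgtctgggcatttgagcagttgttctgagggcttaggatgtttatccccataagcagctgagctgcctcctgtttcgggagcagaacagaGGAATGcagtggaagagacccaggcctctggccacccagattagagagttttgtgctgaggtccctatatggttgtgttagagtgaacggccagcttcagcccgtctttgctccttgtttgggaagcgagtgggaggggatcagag
Postn (chr3:54360857-54361106, plus strand): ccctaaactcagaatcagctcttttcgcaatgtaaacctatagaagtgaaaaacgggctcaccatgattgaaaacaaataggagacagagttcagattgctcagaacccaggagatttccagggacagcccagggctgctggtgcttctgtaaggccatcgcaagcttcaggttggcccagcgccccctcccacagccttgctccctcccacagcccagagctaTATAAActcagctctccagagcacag
Pdpn (chr4:143299565-143299814, minus strand): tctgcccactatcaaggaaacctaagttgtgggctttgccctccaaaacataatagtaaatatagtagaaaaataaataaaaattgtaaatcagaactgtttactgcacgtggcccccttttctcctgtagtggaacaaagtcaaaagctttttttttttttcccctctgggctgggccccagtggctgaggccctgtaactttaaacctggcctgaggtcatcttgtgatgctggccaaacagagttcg
The motifs were the TATA box (TATAAA), the AP-1 site (TGANTCA), the TEAD site (GGAATG) and the CArG box bound by serum response factor (CCWWWWWWGG, W for A or T). They were searched on both strands from 250 bases before to 50 bases after the start. Only exact matches were counted. The Acta2 bases ccctatatgg and ccttgtttgg come near the CArG letters without matching them and are unmarked, so looser CArG sites were not assessed. Acta2 held the TEAD letters at position -146, and Postn held the TATA box at -26. Pdpn and Pdgfra held none of the 4 motifs, and neither did the first promoter of Postn. Of 32851 mouse promoters, 14.7% held the TEAD letters, 13.6% the TATA box, 7.81% the AP-1 letters and 1.63% the CArG box. The gene model of Acta2 used for the counts starts within the printed bases, upstream of the RefSeq start. A match shows only that the letters are present.

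Total counts per tumor ran from 9295708 to 25370320 with a median of 17693147. Levels are given as CPM, counts scaled to a common library size after TMM normalization, and 3 counts, taken as the smallest level a library can show, corresponded to 0.106 to 1.34 CPM. This floor covers counting error only. The highest floor belonged to tumor C102-M30 of BURP-25BaSq, in which a ribosomal RNA gene took 61.9% of the counts. Within BURP-25BaSq, tumor C102-M1 was closer to BURP-21BaSq than to the other tumors of its label, with Pearson's r over genes of 0.968 against 0.892, and it was kept where its label puts it. By smaller margins, C102-M3 of the same line was closest to BURP-12BaSq, with r of 0.915 against 0.913, and C165-M30 of BURP-17BaSq to BURP-24BaSq, with 0.9255 against 0.925. In these bulk tumors, fewer cells of a type and less RNA per cell cannot be told apart.

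Per length of transcript, fibronectin and podoplanin were the most abundant of the markers and Fap the least. The median over the 24 tumors was 40.9 RPKM (CPM per kilobase of exon) for Fn1, 31.3 for Pdpn, 14.8 for Postn and 10.4 for Acta2. It was 3.67 RPKM for Thy1, 3.23 for Pdgfrb and 1.24 for Dcn. Pdgfra, Lum and Fap had medians of 0.994, 0.781 and 0.39 RPKM. All 10 genes passed the filter on low counts in every comparison below.

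**Figure D1:**
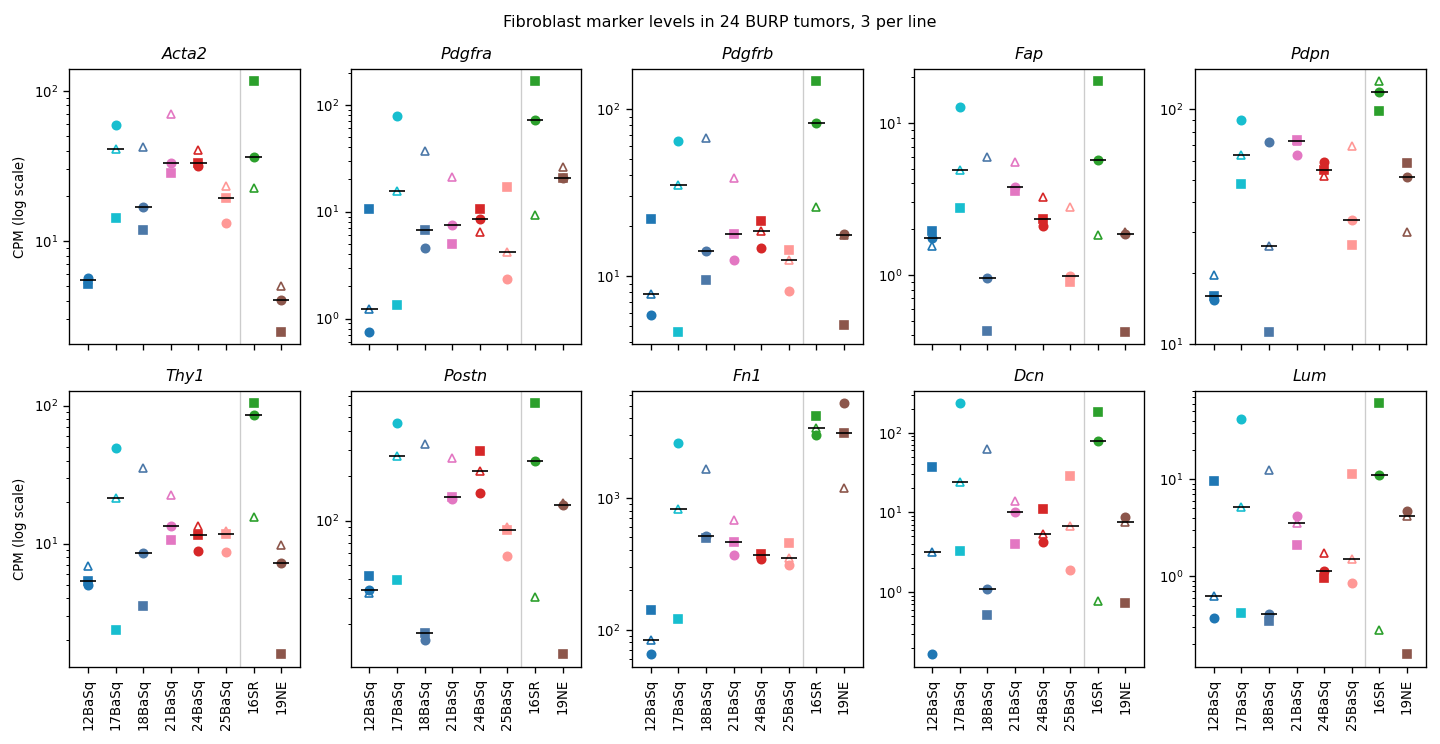
CPM of each marker (log axis, 1 panel per gene) in the 3 tumors of each line, drawn as a circle, a square and an open triangle, with the line's median as a bar. Fn1 lies at 1180.2 CPM or more in all tumors of BURP-16SR and BURP-19NE, Acta2 is lowest in BURP-19NE, and Dcn and Lum spread most among tumors of the same line.

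The platelet-derived growth factor receptors were highest in BURP-16SR. Pdgfra was at 9.30 CPM in tumor P5, 71.5 in C73-M10 and 166 in C74-MNT of that line, and between 20.8 and 26.1 CPM in the 3 BURP-19NE tumors. Over the 18 BaSq tumors it had a lowest value of 0.75, a median of 7.11 and a highest of 79.1 CPM. Tumors P5 and C73-M10 of BURP-16SR thus lay within the BaSq range, and so did all BURP-19NE tumors, although BURP-19NE had the smallest spread of Pdgfra of any line, 1.26-fold from lowest to highest. Pdgfrb was at 25.9, 81.9 and 146 CPM in P5, C73-M10 and C74-MNT, against 4.62, 14.5 and 66.6 CPM as the lowest, median and highest BaSq values and 5.06, 17.7 and 17.7 CPM in BURP-19NE. The Pdgfrb gene lies on chromosome 18 from 61045150 to 61085061 (GRCm38). Within BURP-17BaSq, Pdgfra ran from 1.34 CPM in C165-M30 through 15.5 in P4 to 79.1 in C152-M1, so that a single line held the highest and 1 of the 3 lowest BaSq values.

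Thy1 and Pdpn, surface glycoproteins of fibroblasts, were also highest in BURP-16SR but differed in their spread. Thy1 was at 15.5, 85.8 and 104 CPM in P5, C73-M10 and C74-MNT, with a lowest, median and highest BaSq value of 2.35, 11 and 49.5 CPM and with 7.20, 1.58 and 9.71 CPM in C80-M1, C80-M3 and C80-M30 of BURP-19NE. Pdpn was at 131, 118 and 98.5 CPM in the same BURP-16SR tumors, every one above the highest BaSq value of 89.9 CPM. The tumor with the most Pdpn in this line, P5, had the least Thy1. By the median of a line, Pdpn was lowest in BURP-12BaSq, at 15.3, 16 and 19.6 CPM, although the lowest single tumor was C149-M3 of BURP-18BaSq with 11.2 CPM. It was close together in BURP-21BaSq, at 63.7, 73.7 and 72.8 CPM. In BURP-25BaSq it was at 33.7 and 26.4 CPM in C102-M3 and C102-M30 and at 69.5 CPM in C102-M1, the library that resembled BURP-21BaSq.

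Acta2 separated BURP-12BaSq and BURP-19NE from the other 6 lines. It was at 5.67, 5.14 and 5.48 CPM in the BURP-12BaSq tumors and at 4.04, 2.48 and 4.99 CPM in the BURP-19NE tumors. In the other 6 lines the lowest tumor, C149-M3 of BURP-18BaSq, held 11.8 CPM and the highest, C74-MNT of BURP-16SR, held 116 CPM. Each of the 2 low lines thus overlapped with no other line. The 3 BURP-24BaSq tumors were close, at 31.4, 33.0 and 40.5 CPM, and BURP-21BaSq reached 70.0 CPM in P5 against 33.1 and 28.3 CPM in P4 and P4.2. Fap, the protease, was low throughout, from 0.422 CPM in C80-M3 of BURP-19NE to 18.8 CPM in C74-MNT of BURP-16SR, and its BaSq median was 2.55 CPM.

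Of the matrix genes, fibronectin marked both lines outside the BaSq class. Fn1 was at 3357, 2983 and 4150 CPM in P5, C73-M10 and C74-MNT of BURP-16SR and at 5185, 3077 and 1180.2 CPM in C80-M1, C80-M3 and C80-M30 of BURP-19NE. The BaSq tumors had a lowest, median and highest value of 65.3, 371 and 2587 CPM, the lowest being in BURP-12BaSq, whose 3 tumors held 65.3, 140.3 and 84.1 CPM. Only 2 BaSq tumors, C152-M1 of BURP-17BaSq with 2587 CPM and P4 of BURP-18BaSq with 1662 CPM, reached the range of BURP-19NE. Postn ran from 12.49 CPM in C80-M3 of BURP-19NE to 618 CPM in C74-MNT of BURP-16SR, and from 30.2 to 618 CPM within BURP-16SR alone.

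Decorin and lumican were the markers that differed most among tumors of the same line. Dcn was at 0.769 CPM in P5, 79.2 in C73-M10 and 185 in C74-MNT of BURP-16SR, and at 0.167, 36.7 and 3.18 CPM in C41-M3, C47-M30 and C47-M3 of BURP-12BaSq. Its highest level, 233 CPM, was found in C152-M1 of BURP-17BaSq, a line whose other tumors held 3.28 and 24.2 CPM. Lum followed the same order in these lines, with 0.28, 11 and 60.1 CPM in P5, C73-M10 and C74-MNT and 42.1 CPM in C152-M1. In C80-M3 of BURP-19NE, Lum was at its floor of 0.158 CPM and Dcn was at 0.738 CPM, while the other tumors of that line held 4.67 and 4.13 CPM of Lum and 8.88 and 7.67 CPM of Dcn. In every line the lowest tumor held 4.28 CPM of Dcn or less.

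Whether the 8 lines differed beyond the spread among their own tumors was tested gene by gene with edgeR's quasi-likelihood F test, adjusted over all 21383 genes by Benjamini-Hochberg. The share of genes that passed was 76.7%, and 7 of the 10 markers did. Adjusted p was 8.09e-05 for Fn1, 0.000172 for Acta2, 0.00198 for Pdpn, 0.00847 for Thy1, 0.0262 for Pdgfrb, 0.0375 for Fap and 0.0376 for Pdgfra. Postn, Dcn and Lum did not pass, with adjusted p of 0.194, 0.16 and 0.206. Between-line differences were thus about as common among the markers as among genes at large. Without tumor C74-MNT of BURP-16SR, only Acta2, Pdpn and Fn1 passed, and without P4 of BURP-18BaSq, Postn and Dcn passed as well. In all, 17 of the 24 fits that left out 1 tumor lost a marker, which was Pdgfra, Fap or both except that Pdgfrb was also lost without C73-M10 and Pdgfrb and Thy1 without C74-MNT of BURP-16SR. With the style of the label (beginning with P or with C, letters that the labels do not explain) as a covariate, 6 markers passed and Pdgfra was lost. The 17 tumors were all tumors of BURP-12BaSq, BURP-24BaSq, BURP-25BaSq and BURP-19NE, C152-M1 of BURP-17BaSq, P4 and P4.2 of BURP-21BaSq and these 2 of BURP-16SR. These p-values measure the spread among tumors that descend from 1 donor mouse per line.

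How far levels followed the line can be read from the share of the sum of squares of log2 CPM that lay between the 8 lines. It is not the size of a difference, since it also depends on the spread within lines. Some share is expected even where lines do not differ. The share between lines was 81.2% for Acta2, 79% for Fn1 and 72.5% for Pdpn, against a median of 69.1% over all genes tested. It was from 36.2% to 48.3% for Fap, Thy1, Pdgfra, Pdgfrb and Postn, and 19.3% for Dcn and 14.4% for Lum. Dcn and Lum were therefore among the genes for which the line said least about the level, with a lower share in only 1.07% and 0.36% of genes. The SD among tumors of a line was 2.75 on the log2 scale for Dcn and 2.40 for Lum, with a smaller SD in 99.9% and 99.7% of genes. Pdpn had the smallest SD of the markers, 0.60, against a median of 1.20 over the 10 markers and 0.47 over all genes.

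**Figure D2:**
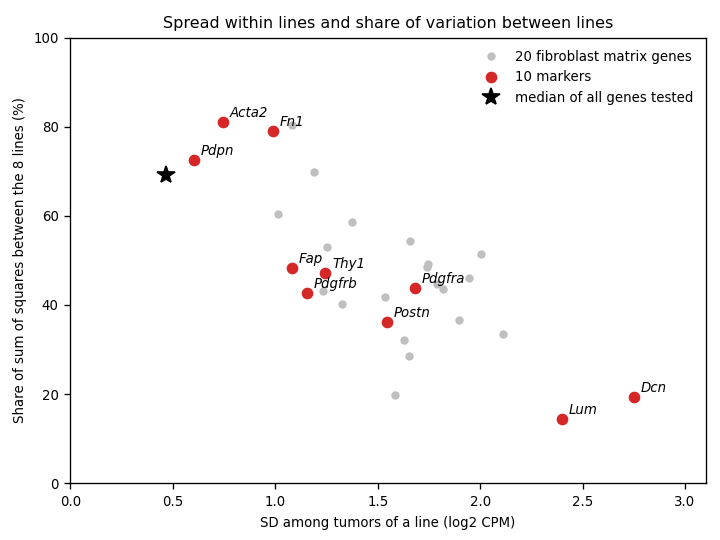
SD among tumors of a line (horizontal, log2 CPM) against the share of the sum of squares between the 8 lines (vertical, percent) for the 10 markers, 20 other fibroblast matrix genes and the median of all genes tested. Acta2, Fn1 and Pdpn sit at the upper left with shares from 72.5% to 81.2%, and Dcn and Lum at the lower right.

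Among the 6 BaSq lines alone, 3 of 10 markers differed between lines, Acta2 with an adjusted p of 0.00511, Fn1 with 0.016 and Pdpn with 0.0298, where 50.5% of 20523 genes passed the same edgeR test. BURP-12BaSq had the lowest median of all 3 genes. For Pdgfra, Pdgfrb, Fap, Thy1, Postn, Dcn and Lum, adjusted p lay between 0.115 and 0.346. Leaving out C41-M3 or C47-M3 of BURP-12BaSq left Acta2 alone, and leaving out C47-M30 of that line or P4.2 of BURP-21BaSq removed Pdpn. Leaving out P4 of BURP-18BaSq added Fap and Postn, and leaving out C165-M30 of BURP-17BaSq added Thy1. Leaving out C102-M1 or counting it with BURP-21BaSq kept the same 3 genes.

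Tumors of 1 line differed in the same direction at most of the markers. In BURP-17BaSq, C152-M1 held the highest level of the line for 10 of 10 markers and C165-M30 the lowest for 10 of 10, while 36.2% of all genes were highest in C152-M1 and 38.3% lowest in C165-M30. In BURP-18BaSq, P4 was highest for 9 markers, all but Pdpn, where 35.2% of all genes were highest. In BURP-16SR, C74-MNT was highest for 9 markers, again all but Pdpn, and P5 was lowest for 8. In BURP-21BaSq, P5 was highest for 8, and in BURP-19NE, C80-M3 was lowest for 7. Over the 24 tumors, from 25% to 40.4% of all genes were highest of their line in a given tumor. In BURP-24BaSq no tumor was highest for more than 5 markers, although C81-M1 was lowest for 7, and the median deviation of the markers from the line mean stayed between -0.20 and 0.06 on the log2 scale, against -2.31 and 1.70 for the lowest and highest BURP-17BaSq tumor.

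**Figure D3:**
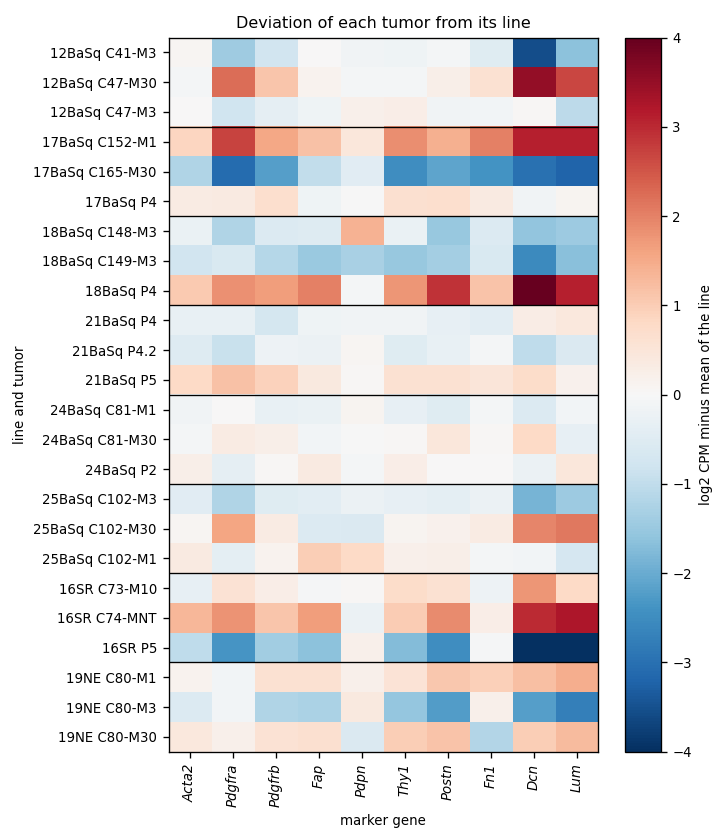
Deviation of log2 CPM of each tumor (rows, by line) from the mean of its line for the 10 markers (columns), with red for higher and blue for lower and colors cut off at 4 in either direction. C152-M1 of BURP-17BaSq, P4 of BURP-18BaSq and C74-MNT of BURP-16SR are red for 9 or 10 markers, C165-M30 of BURP-17BaSq is blue for all 10, and the Pdpn column follows the other columns in BURP-17BaSq but not in BURP-16SR.

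The deviations from the line mean were compared between genes over the 24 tumors, as a description, since the 3 deviations of a line sum to 0 and all genes of a tumor share its library. Dcn and Lum moved most closely, with Pearson's r of 0.952, followed by Thy1 and Postn with 0.928 and Pdgfrb and Thy1 with 0.918. Against the mean of the other 9 markers, r was 0.966 for Pdgfrb, 0.935 for Lum, 0.918 for Dcn, 0.91 for Thy1, 0.905 for Postn, 0.882 for Pdgfra, 0.871 for Acta2 and 0.848 for Fap. It was 0.682 for Fn1 and 0.0413 for Pdpn. Over the lines together, the deviations of Pdpn thus had little linear relation to those of the other markers, although in BURP-17BaSq Pdpn took the same order, at 89.9, 63.6 and 47.9 CPM in C152-M1, P4 and C165-M30. Its line means followed those of the other markers more closely, with r over 8 lines from 0.676 with Fn1 to 0.867 with Postn.

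Over the 24 tumors, the 5 genes whose levels ranked most like the mean of the markers were Ctsk, Ebf1, Loxl1, Mfap5 and Pi16, with Spearman's rho of 0.957, 0.95, 0.945, 0.937 and 0.937. Ctsk encodes the collagen-degrading protease cathepsin K, Ebf1 a transcription factor, Loxl1 a collagen and elastin cross-linking enzyme, Mfap5 a microfibril glycoprotein and Pi16 a secreted protein of adventitial fibroblasts. Loxl1, Mfap5 and Pi16 also belong to the lists used below. Among the markers themselves, rho with the mean of the other 9 was 0.85 for Thy1, 0.83 for Postn, 0.827 for Pdgfrb and 0.82 for Dcn, and lowest for Fn1 with 0.47 and Pdpn with 0.437.

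BURP-16SR, classed in the study as stroma-rich, was compared with the 18 BaSq tumors. The fit held no term for line, so its SE and p-values count tumors that descend from the same donor mouse as independent, which they are not. Higher in BURP-16SR by edgeR's test, at an adjusted p under 0.05 and above 2-fold, were 5 of 10 markers, against 10.5% of 21028 genes higher and 8.62% lower, and no marker was lower. The log2 fold change was 2.71 ± 0.82 (SE, adjusted p = 0.0196) for Pdgfra, 2.69 ± 0.62 (0.00319) for Fn1, 2.38 ± 0.56 (0.00374) for Thy1, 2.05 ± 0.57 (0.0112) for Pdgfrb and 1.33 ± 0.43 (0.0287) for Pdpn. For Fn1 and Pdpn no BURP-16SR tumor overlapped with any BaSq tumor, while at the 3 other genes P5 lay among the BaSq tumors, and for Pdgfra C73-M10 did as well. Acta2, Fap, Postn, Dcn and Lum did not pass, with log2 fold changes of 1.16, 1.5, 1.09, 1.91 and 2.22 and 95% confidence intervals that for Dcn ran from -0.63 to 4.45 and for Acta2 from -0.06 to 2.38. The median log2 fold change of the 10 markers was 1.98, and that of all genes was -0.03.

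Several of these calls were lost with a single tumor left out, while the changes stayed positive. Over 18 alternatives the log2 fold change ran from 1.95 to 2.81 for Thy1, from 1.15 to 1.47 for Pdpn, from 2.41 to 3.30 for Fn1, from 1.40 to 2.48 for Pdgfrb and from 1.69 to 3.52 for Pdgfra. Without C74-MNT only Fn1 passed, without C73-M10 Pdgfra and Pdpn were lost, and Pdpn was also lost without P5 or without the line BURP-25BaSq. Without the line BURP-17BaSq, 8 markers passed, with Fap, Dcn and Lum added. The same genes were added with C152-M1 of BURP-17BaSq and P4 of BURP-18BaSq left out. Those tumors were chosen after the data were seen, as the BaSq tumors highest for most markers. Leaving them out favors higher calls in BURP-16SR, so that fit gives no separate evidence. With counts summed per line, which leaves 1 value for BURP-16SR and 6 for BaSq, none of the 10 passed in edgeR (4 of 10 at an unadjusted p under 0.05), whereas 841 genes at large did. Adjusted p was then 0.14 for Thy1, 0.223 for Pdgfrb, 0.238 for Fn1, 0.261 for Pdgfra and 0.355 for Pdpn, at log2 fold changes from 1.20 to 2.41. Over the 18 alternatives, adjusted p ran from 0.000102 to 0.14 for Thy1, from 0.000363 to 0.223 for Pdgfrb, from 1.44e-05 to 0.238 for Fn1, from 0.000377 to 0.275 for Pdgfra and from 0.00117 to 0.355 for Pdpn.

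BURP-19NE differed from the BaSq lines at 2 of 10 markers and in opposite directions, in a fit that likewise counted tumors of the same line as independent. Acta2 fell, with a log2 fold change of -2.82 ± 0.77 (SE, edgeR adjusted p = 0.00741) and no overlap between the groups, where 15% of 20995 genes were lower. Fn1 rose, with 2.48 ± 0.65 (adjusted p = 0.0058) and some overlap, where 9.33% of genes were higher. The other 8 markers did not pass, at log2 fold changes between -2.10 for Dcn and 0.77 for Pdgfra, and their median over all 10 was -0.77 beside -0.14 for all genes. Pdpn differed by -0.03, with a 95% confidence interval from -1.05 to 0.98. Without C80-M1, the tumor with 5185 CPM, Fn1 was no longer called, and with counts summed per line neither gene was in edgeR, at an adjusted p of 0.195 for Acta2 and 0.206 for Fn1 (2 of 10 markers at an unadjusted p under 0.05). Over 19 alternatives the log2 fold change ran from -3.08 to -2.28 for Acta2 and from 1.90 to 3.06 for Fn1, with adjusted p from 2.27e-05 to 0.195 and from 2.51e-05 to 0.206.

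**Figure D4:**
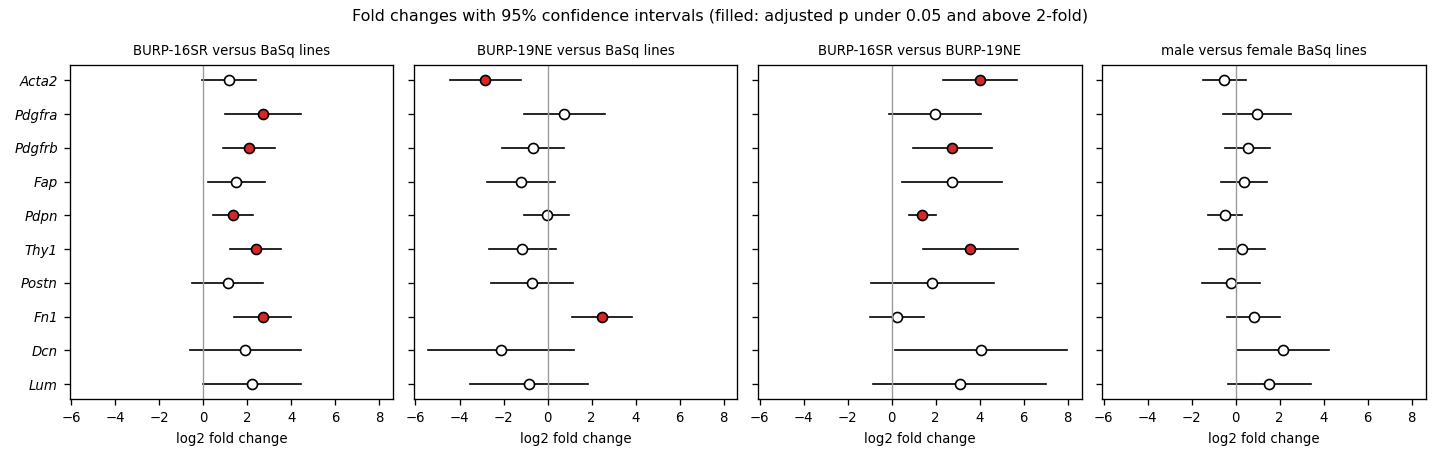
Log2 fold change of each marker (points) with its 95% confidence interval (lines) in 4 comparisons, filled where adjusted p was under 0.05 and the change above 2-fold. Filled points are 5 for BURP-16SR against BaSq lines, 2 for BURP-19NE against BaSq lines, 4 for BURP-16SR against BURP-19NE and 0 for male against female lines.

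Set directly against BURP-19NE, BURP-16SR had more Acta2, Thy1, Pdgfrb and Pdpn. Their log2 fold changes were 4.03 ± 0.70 (SE, edgeR adjusted p = 0.00711), 3.58 ± 0.91 (0.0245), 2.76 ± 0.75 (0.0302) and 1.40 ± 0.26 (0.00887), with 3 tumors per line and no overlap at any of the 4. Of 17556 genes, 14.8% were higher in BURP-16SR and 8.86% lower. Fn1 differed by 0.25, with a 95% confidence interval from -0.97 to 1.46, and Pdgfra by 1.98 with an adjusted p of 0.122. Dcn had the highest estimate, 4.05, with an interval from 0.13 to 7.96 and an adjusted p of 0.098. Leaving out P5 of BURP-16SR added Pdgfra, Fap, Dcn and Lum to the calls, and leaving out any of the other 5 tumors removed Pdgfrb and Thy1. Over 11 alternatives the log2 fold change ran from 3.11 to 4.05 for Thy1 and from 2.09 to 3.15 for Pdgfrb. These tumors stand for 1 donor mouse on each side.

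Among BaSq lines, no marker differed between the 9 tumors of male and the 9 of female lines in edgeR's test, and none did in DESeq2. The share of 17922 genes called was 1.09% higher and 1.22% lower in males. At an unadjusted p under 0.05 there was 1 marker, Dcn, at 40.5 ± 75.3 CPM in males and 9.56 ± 8.13 CPM in females (SD, n = 9 tumors each), with a log2 fold change of 2.14 and an adjusted p of 0.208. The 9 tumors per sex are not independent, since those of a line descend from the same donor mouse, and the fit held no term for line. The lowest, median and highest levels of Dcn were 0.167, 3.28 and 233 CPM in males and 1.91, 6.75 and 28.6 CPM in females, so that the male median was the lower one. The intervals of the other markers all contained 0 and reached 2-fold or more in at least 1 direction.

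Other genes of the stroma were grouped into lists. Beside each count here and in the paragraphs that follow, the share of all genes called against BaSq tumors was 10.5% higher and 8.62% lower in BURP-16SR. In BURP-19NE it was 9.33% higher and 15% lower. Calls of list genes come from the main fits only, which held no term for line. Of 20 fibroblast matrix genes, 12 were higher in BURP-16SR than in BaSq tumors and none lower, with a median log2 fold change of 2.33. Col1a1, the main chain of type I collagen, was at 334, 3636 and 8844 CPM in P5, C73-M10 and C74-MNT. Summed over the list, levels ran from 442 to 14572 CPM in BaSq tumors, from 1939 to 30322 in BURP-16SR and from 2148 to 2931 in BURP-19NE. P5 of BURP-16SR therefore combined the lowest matrix sum of its line and Dcn and Lum under 1 CPM with Fn1 at 3357 and Pdpn at 131 CPM. Fbln2, which encodes the basement membrane protein fibulin-2, rose in both BURP-16SR and BURP-19NE against BaSq tumors, with log2 fold changes of 2.55 and 2.52 and adjusted p of 0.017 and 0.0137.

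Within BURP-19NE, the matrix genes differed from each other in how far the tumors lay apart. Its 3 tumors C80-M1, C80-M3 and C80-M30 held 1538, 1127 and 1242 CPM of Col3a1, which encodes type III collagen, but 195, 10.4 and 237.7 CPM of Col1a1. Against BaSq tumors, Col3a1 did not pass, with a log2 fold change of 1.21 and an adjusted p of 0.338 in edgeR's test. Dpt, the dermatopontin gene, was at 103, 129.8 and 61.0 CPM and rose against BaSq tumors by 3.60 ± 1.13 on the log2 scale (edgeR adjusted p = 0.0179). C80-M3 thus held the most Dpt of the line and the least Col1a1, Dcn and Lum. Col3a1 and C80-M3 were singled out after their values were seen. Of the 20 matrix genes, 1, Fbln2, was higher and 1, Thbs2, lower in BURP-19NE.

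The list of ligands held Pdgfa, Pdgfb, Pdgfc and Pdgfd, and also Tgfb1, Tgfb2 and Tgfb3, whose receptors are not among the markers. The share of the sum of squares between the 8 lines was 67.6% for Pdgfa and 69.3% for Pdgfb, near the median of 69.1% over all genes. For the other ligands it ran from 75.4% (Tgfb2) to 89.5% (Pdgfc). Pdgfd, a ligand of the beta receptor, was higher than in BaSq tumors in BURP-16SR by 3.90 and in BURP-19NE by 3.49 on the log2 scale, with adjusted p of 6.55e-05 and 0.000161 and no overlap in either case. Pdgfc, a ligand of the alpha receptor, rose in BURP-19NE by 3.08 (adjusted p = 5.77e-05), at 57.1, 63.5 and 44.3 CPM against a mean of 6.67 CPM in BaSq tumors. Tgfb3 rose in both lines, by 1.44 and 2.10 (adjusted p = 0.0246 and 0.000784), Tgfb1 rose in BURP-16SR, and Pdgfb and Tgfb2 fell in BURP-19NE. In all, 3 of 7 ligands were called higher in BURP-16SR and none lower, and 3 higher and 2 lower in BURP-19NE. Pdgfa had a log2 fold change of -0.78 in BURP-16SR (edgeR adjusted p = 0.0481), short of the 2-fold threshold. Both lines were compared with the same BaSq tumors.

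Of 12 genes linked to inflammatory fibroblasts, 3 rose in BURP-16SR, namely Il6, Cxcl12 and Has1, and in BURP-19NE 2 rose (Has1, Dpt) and 4 fell (Lif, Cxcl1, Ccl2, Ly6c1). Has1, a hyaluronan synthase, overlapped with BaSq tumors in neither line. Of 14 smooth muscle and pericyte genes, 8 rose and 1, Tpm2, fell in BURP-16SR, with Rgs5 at a log2 fold change of 1.60 and Tagln at 1.77. In BURP-19NE, 4 of them, Tagln, Tpm2, Actg2 and Notch3, fell together with Acta2. The summed level of the list was 72.4 to 149.3 CPM in BURP-19NE, 176 to 562 in BaSq tumors and 235 to 638 in BURP-16SR. The part of smooth muscle or pericytes in the Acta2 and Pdgfrb values was not tested.

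Markers of blood vessels and leukocytes followed the order of the fibroblast markers in BURP-17BaSq and BURP-18BaSq, and only in part in BURP-16SR and BURP-12BaSq. In BURP-21BaSq both sums were highest in P5, the highest tumor for 8 markers. Both were lowest in C80-M3 of BURP-19NE, the lowest tumor for 7 markers, and in C102-M3 of BURP-25BaSq, the lowest for 8. In BURP-24BaSq the endothelial sum was lowest in C81-M1, the lowest tumor for 7 markers, but the leukocyte sum was lowest in C81-M30. The 5 blood endothelial genes summed to 157 to 250.4 CPM in BURP-16SR, 20.5 to 269.5 in BaSq tumors and 43.1 to 59.3 in BURP-19NE, and 3 of 5 were higher in BURP-16SR. In BURP-17BaSq this sum was 269.5, 110 and 24.4 CPM in C152-M1, P4 and C165-M30, the same order as that of the fibroblast markers. In BURP-18BaSq it was 20.5 CPM in C149-M3, 23.6 in C148-M3 and 128.5 in P4, and in BURP-12BaSq 32.4 in C41-M3, 34.4 in C47-M3 and 46.0 in C47-M30. In BURP-16SR it was 176 CPM in P5, the lowest tumor for 8 markers, 157 in C73-M10 and 250.4 in C74-MNT. The 6 leukocyte genes summed to 250.2, 94.8 and 19.4 CPM in C152-M1, P4 and C165-M30 of BURP-17BaSq. They summed to 7.46, 39.1 and 210.7 CPM in C149-M3, C148-M3 and P4 of BURP-18BaSq. In BURP-12BaSq their sum was highest in C41-M3, the lowest tumor for 7 markers, at 57.4 CPM against 54.6 in C47-M30 and 54.2 in C47-M3. In BURP-16SR they summed to 32.8 CPM in P5, 289.7 in C73-M10 and 235 in C74-MNT. The highest sum of BURP-16SR was thus not in the tumor that was highest for 9 markers. Adjusted p of these 6 genes lay between 0.231 and 0.745 for BURP-16SR against BaSq tumors in edgeR's test. Cd3e, the T cell gene, was at 0 in P5, where Thy1 was at 15.5 CPM. Of 3 lymphatic genes, Prox1 rose in BURP-16SR, to 21.8 CPM in P5, 9.24 in C73-M10 and 9.13 in C74-MNT, the order of Pdpn. The part of these cells in the marker levels was not tested.

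Epithelial and muscle genes set further bounds to the comparison. The 6 epithelial genes summed to 6201 to 12181 CPM in BaSq tumors, 212 to 489 in BURP-16SR and 141 to 213 in BURP-19NE. Krt5, the basal keratin, was at or under 0.339 CPM in all 6 tumors of the last 2 lines, and Epcam was at 0 in all BURP-19NE tumors. The simple keratin Krt18 was at 129 to 320.4 CPM in BURP-16SR and 139 to 211 CPM in BURP-19NE, so that these allografts held little Krt5 but did not lack every keratin. By staining, the study found the basal marker TP63 in some BURP-16SR cells and at a high level in BURP-19NE. The RNA of that marker was not examined here. Skeletal muscle genes summed to 579 CPM in C80-M1 of BURP-19NE and 140.1 CPM in C74-MNT of BURP-16SR, against 0 to 37.1 CPM in all other tumors. All 6 were called higher in BURP-19NE against BaSq tumors, where 9.33% of all genes were. The sums of C80-M3 and C80-M30 of that line were 2.85 and 6.17 CPM, so the summed level was raised in C80-M1 alone. C80-M1 also held the most Fn1 of the whole set, and C74-MNT the most of 7 of the 10 markers. Adipocyte genes summed to 1.12 to 245.1 CPM and Schwann cell genes to 0.158 to 31.5 CPM over the 24 tumors, the last being highest in C152-M1. The part of muscle, fat or nerve in the marker levels was not tested.

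**Figure D5:**
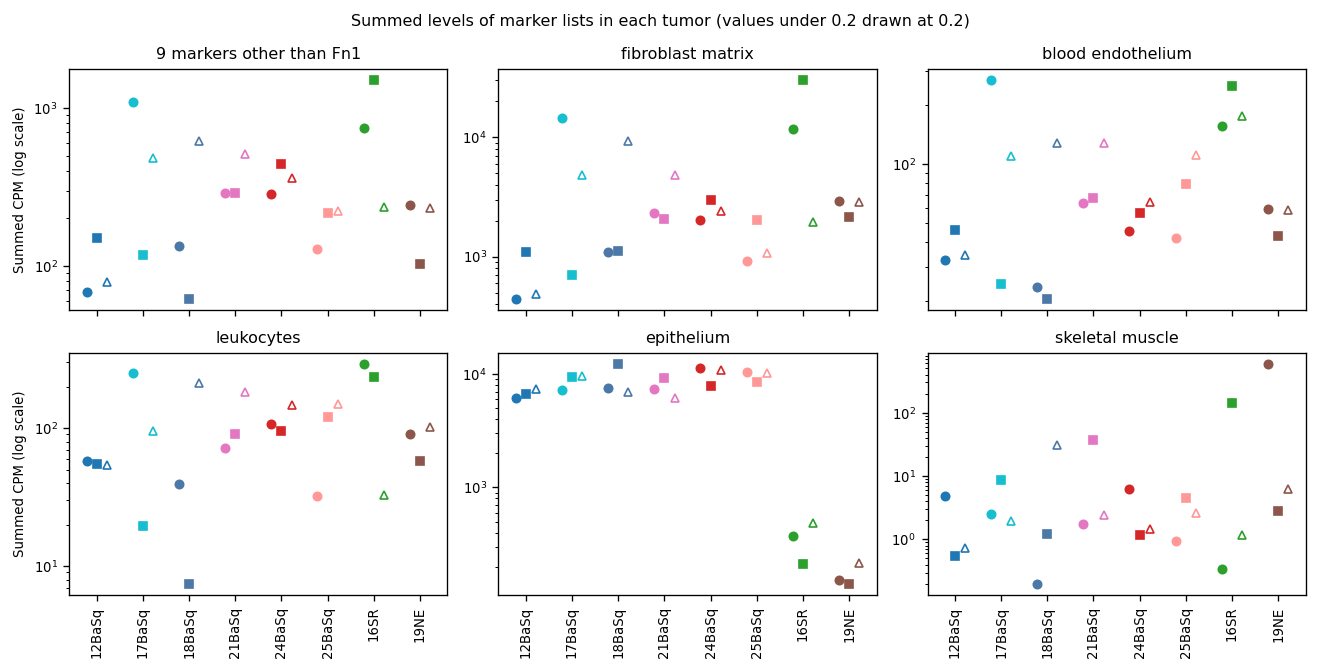
Summed CPM (log axis) of the 9 markers other than Fn1 and of 5 lists of cell type genes in each tumor, by line, with values under 0.2 drawn at 0.2. Epithelial sums lie at 6201 CPM or more in BaSq tumors and at 489 CPM or less in BURP-16SR and BURP-19NE, endothelial and leukocyte sums vary within lines, and skeletal muscle genes stand out in C80-M1 of BURP-19NE and C74-MNT of BURP-16SR.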

How the data were processed

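RNA-seq libraries depleted of ribosomal RNA were made from 24 tumors (8 BURP lines, 3 tumors each). Reads were aligned by the authors with STAR 2.6.0a to GRCm38 (GENCODE annotation), and the authors deposited RSEM 1.3.1 estimated counts per gene, without normalization. Of the values, 12.5% were not whole numbers, and all were rounded. Gene symbols and positions came from a GRCm38 annotation in which 99.8% of identifiers were found. Lines were taken from the sample labels, and sex and subtype of each line from the study's text. The 10 markers and 11 lists of other genes were chosen with earlier results of these data known. Named are the 10 markers, genes of those lists, and the 5 genes ranking most like the mean of the markers over the 24 tumors.

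Fits used edgeR 4.0.16 in R 4.3.3 (TMM, filterByExpr, glmQLFit and glmQLFTest without robust estimation) and, as an alternative, DESeq2 1.42.0. P-values were adjusted by Benjamini-Hochberg over all genes tested. A gene was called at an adjusted p under 0.05 and, between 2 groups, an absolute log2 fold change above 1. Log2 CPM used a prior count of 2. The fits were tested on simulated counts. Alternatives covered size factors, filters on low counts, DESeq2, all 24 tumors in 1 fit, counts summed per line, the style of the label, the number in the label as a block, and tumors or lines left out. The totals of 9295708 to 25370320 counts limit precision for genes near the floor.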

Additional observations from a re-analysis of the deposited data

Results flagged for a closer look

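In the groups of 9 BaSq tumors per sex, the gap from the highest or lowest value to its neighbour was tested on the CPM scale. It exceeded Dixon's 95% critical value in 10 of 20 tests of a marker in a sex. That critical value holds for independent normal values, whereas CPM values here were skewed and tumors of a line are related. A rate expected by chance is therefore not given, and the gaps were not tested on the log2 scale. Among male tumors, C152-M1 of BURP-17BaSq stood apart for Pdgfra at 79.1 CPM (next 37.3), Fap at 12.8 (next 5.99), Dcn at 233.1 (next 62.2) and Lum at 42.1 (next 12.3). Among female tumors, P5 of BURP-21BaSq stood apart for Acta2 at 70.0 CPM (next 40.5), Pdgfrb at 38.7 (next 21.2), Thy1 at 22.4 (next 13.3) and Fn1 at 684 (next 461). C102-M30 of BURP-25BaSq, the library with 61.9% of its counts on a ribosomal RNA gene, stood apart for Dcn at 28.6 CPM (next 13.9) and Lum at 11.2 (next 4.22). The 10 tests share 3 tumors and are not independent.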

How the results depend on the processing

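The last part of a label, such as M3 or P4 and here called its number, recurs across lines and in 3 pairs of tumors within a line. The labels do not say what it stands for, and nothing in them ties such numbers to a shared animal, batch or day. Of 35 pairs of tumors from different lines with the same number, 4 had deviations from the line means correlated above 0.1 (median r 0.016). Of 217 pairs with different numbers, 40 did (median r -0.005). Such correlations cannot show whether tumors with the same number shared a batch or day, which was not tested. With the number as a replicate block (added after the data were seen), 2 markers passed among the 8 lines (Acta2, Fn1) and 1 among the BaSq lines (Acta2, with 5142 genes), 2 for BURP-19NE against BaSq lines as without it, and 16 genes between the sexes. BURP-16SR shares at most 1 number with another group, so no block was fitted to its comparisons. A filter of at least 10 counts in every tumor, under which only 7 or 8 of the 10 markers were tested, also lowered the genes tested. It called 9457 of 10704 genes among the 8 lines, where the main fit called 16409 of 21383, so the share called was not lower there. Called were 1594 of 10820 genes for BURP-16SR and 2001 of 10832 for BURP-19NE against BaSq lines, and 191 of 11147 between the sexes. DESeq2 called 7 markers for BURP-16SR against BURP-19NE and 768 genes between the sexes. With all 24 tumors in 1 fit, or without C152-M1 and P4 of BURP-18BaSq (chosen after the data were seen), 8 markers passed for BURP-16SR against BaSq lines. With counts summed per line, 0 markers passed for BURP-16SR (841 genes) and 0 for BURP-19NE (1087 genes), and 0 genes passed between the sexes in edgeR, where 1388 genes had an unadjusted p under 0.05. With a tumor or line left out, markers called ranged from 3 to 9 among the 8 lines, 1 to 5 among the BaSq lines, 1 to 8 for BURP-16SR and 1 to 2 for BURP-19NE against BaSq lines, and 2 to 8 for BURP-16SR against BURP-19NE, and genes called from 2670 to 4845 for BURP-16SR against BaSq lines and from 225 to 1196 between the sexes. Small log2 fold changes reversed. For BURP-19NE against BaSq lines, Pdpn was at 0.0945 with all 24 tumors in 1 fit, 0.20 with the block and from -0.26 to 0.18 with a tumor or line left out, and Lum at 0.16 without C152-M1 and P4. Fn1 ranged from -0.16 to 0.79 for BURP-16SR against BURP-19NE with a tumor left out. Between the sexes, Postn was at 0.0632 with sums per line and from -1.02 to 0.24 with a line left out, Fap from -0.42 to 0.81 and Thy1 from -0.20 to 0.70. The cause of these changes was not tested, apart from the fewer genes, samples or degrees of freedom that the filter, the sums, the left-out tumors and the block leave. The depth of C102-M30 sets a floor of 1.34 CPM for that tumor, above the Fap level of 0.895 CPM found there.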
